A study of Arabidopsis thaliana with 20 samples.

Results

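The chloroplast of *Arabidopsis thaliana* keeps a small genome of its own, which is present in many copies per cell and encodes core subunits of the photosynthetic complexes, part of the plastid ribosome and the plastid-encoded RNA polymerase. Transcripts of this genome were examined here in shoots. Its genes were taken as all rows of the expression table whose identifier starts with ATCG, which gave 133 of 33296 genes. Of these, 88 carried a description in the deposited table, from which 82 could be given a gene symbol, and 45 had no description and are named by identifier. This identifier rule used no measured value, though it was chosen with earlier results of these data known.

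Seedlings of the Col-0 ecotype were grown on Murashige-Skoog agar with sucrose. The study compared dishes without air flow (non-aerated) with dishes through which filtered air was passed (aerated). Its results describe both kinds of dish as sealed with Parafilm. Shoots of 10 plants from 1 plate were pooled for each of the 4 non-aerated and 4 aerated libraries. The labels place the harvest 15 days after vernalization for both treatments. The methods of the study describe about this time, and its results name an earlier day. RNA was sequenced by mRNA-Seq without strand information. The libraries are identified by the numbers in their column names, 2, 4, 6 and 8 for non-aerated and 1, 3, 5 and 7 for aerated shoots, and the 4 values of a treatment are listed by these numbers.

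Most chloroplast genes are transcribed in groups from shared promoters into long precursors, which nuclear-encoded proteins then cut, trim and protect. The plastid-encoded RNA polymerase needs nuclear-encoded sigma factors to find its promoters, and a phage-type RNA polymerase from the nucleus transcribes a further set of genes. Stable chloroplast messenger RNAs mostly lack the long poly(A) tails of nuclear ones, and what part of chloroplast RNA these libraries captured was not measured. In pooled shoots, fewer chloroplast-rich cells and less chloroplast RNA per cell cannot be told apart.

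Chloroplast genes took up a small and variable part of the libraries. Between 34330463 and 60255788 reads per library were assigned to genes, and chloroplast genes took 0.138%, 0.188%, 0.130% and 0.167% of them in non-aerated libraries, against 0.142%, 0.148%, 0.211% and 0.143% in aerated ones. The share averaged 0.156% ± 0.027 in non-aerated and 0.161% ± 0.033 in aerated shoots (SD, n = 4 each), so the difference between the treatments was smaller than the spread within either. The 95% Wilson intervals, which cover counting error only, ran from 0.129% to 0.131% in non-aerated library 6, the lowest, and from 0.209% to 0.212% in aerated library 5, the highest. Aerated library 5 thus stood apart from the other 3 aerated libraries, which lay within 0.142% to 0.148%.

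**Figure D1:**
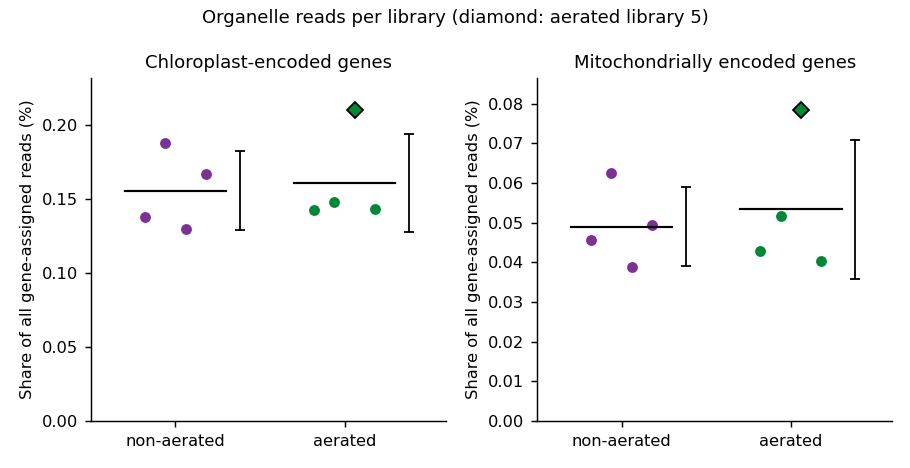
Share of gene-assigned reads (%) on chloroplast-encoded (left) and mitochondrially encoded genes (right) in each non-aerated (purple) and aerated (green) library. Lines are means, bars are SD (n = 4), and the diamond is aerated library 5, the highest in both panels at 0.211% and 0.0785%.

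Aerated library 5 was also high in the reads of the other organelle. Mitochondrial genes took 0.0456%, 0.0624%, 0.0387% and 0.0493% of the reads in non-aerated libraries, against 0.0428%, 0.0516%, 0.0785% and 0.0404% in aerated ones. Library 5 held the highest value of all 8 libraries in 46 of the 89 chloroplast genes tested (51.7%), against 25.4% over all genes tested. The median deviation of the chloroplast genes from their mean over all libraries was −0.29, 0.28, −0.28 and 0.25 on the log2 scale in non-aerated libraries, against −0.07, −0.08, 0.47 and −0.23 in aerated ones. Over all genes the same median lay between −0.001 and 0.006 in every library, where the normalization of the counts holds it near 0. For mitochondrial genes the median was −0.03, −0.16, −0.04 and 0.33 in non-aerated libraries, against −0.25, −0.09, 0.6 and −0.35 in aerated ones. Chloroplast genes as a group shifted up or down from library to library, within both treatments, and so did mitochondrial genes. The part of this shift in the results that follow was not tested, so values without aerated library 5 or non-aerated library 8 are given where they change a call.

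Shoot markers held 3.99% to 4.55% of the normalized counts in non-aerated and 4.73% to 5.98% in aerated libraries, again with the highest value in aerated library 5. These 5 markers were RBCS1A (a Rubisco small subunit), CAB1 (a light-harvesting protein), CA1 (carbonic anhydrase), PSBO1 (a photosystem II protein) and GPRI1 (a regulator of chloroplast development). Taken singly, the values of each marker overlapped between the treatments, and none was called in the comparison below. The mean of CA1 was higher in non-aerated shoots (244500 against 235773), and the means of the other markers were lower. RBCS1A and CAB1 had the highest means. Of 7 root markers, 6 summed to 55.3 to 212.5 normalized counts in non-aerated and 83.4 to 185.9 in aerated libraries. The last, PYK10, a beta-glucosidase best known from roots and seedlings, had 11738 to 16323 normalized counts in non-aerated and 13332 to 17317 in aerated libraries.

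Of the 133 chloroplast genes, 12 were at 0 in all 8 libraries and 89 passed the filter, a minimum of 10 normalized counts in 4 or more libraries. A normalized count is the number of reads divided by the size factor of its library. The 44 that did not pass included 27 of the 45 genes with no description, 7 of 26 ribosomal protein genes and 2 of 6 cytochrome b6f genes. The gene of the intron maturase, *matK* (ATCG00040), had no assigned read in any library. Where no read is seen, the upper 95% limit on the expected count is about 3 assigned reads per library. In CPM (reads scaled to the library total) this is 0.0498 to 0.0874 in non-aerated and 0.0593 to 0.0841 in aerated libraries. The study does not state how reads that overlap 2 genes were assigned, so the bound is not one on the transcript itself. Several genes near 0 lie in the inverted repeat, where the RefSeq chloroplast sequence holds 2 identical copies. The rows of *rpl23* and *rps7* reached at most 2.6 and 2.8 normalized counts and those of *ycf2* at most 10.5. How reads that match both copies were counted is not stated beyond the use of default mapping settings, so the levels of genes with 2 copies are uncertain.

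Per kilobase of coding sequence, *psbA* had the highest mean over the 8 libraries among the 69 chloroplast genes with a symbol and a single copy in RefSeq. It encodes D1, the reaction centre protein of photosystem II that is constantly replaced in the light. Its level was 9667 ± 2239 normalized counts per kilobase in non-aerated and 7862 ± 3729 in aerated shoots (SD, n = 4 each). In aerated shoots its mean was close to that of *rpl16*, at a difference within the spread between plates. The *rpl16* gene spans Pltd:81189-82652, of which 408 bases are coding. Whether reads outside the coding sequence were counted is not stated. Levels per kilobase of genes longer than their coding sequence, such as *rpl16* and *clpP*, are therefore uncertain. The next genes over all libraries were *rbcL*, the large subunit of Rubisco, with 5669 ± 1123 in non-aerated and 6326 ± 2027 in aerated shoots, and *rpl16*, a protein of the large ribosomal subunit, with 5238 ± 1398 in non-aerated and 7943 ± 1478 in aerated shoots. At the low end of the genes that passed the filter were *ccsA*, needed to attach heme to c-type cytochromes, with 29.3 ± 3.4 in non-aerated and 23.7 ± 11.0 in aerated shoots, and *ndhF*, a membrane subunit of the NDH complex, with 44.6 ± 14.3 in non-aerated and 39.3 ± 9.5 in aerated shoots.

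The comparison of non-aerated with aerated shoots addressed how a lack of air flow bears on gene expression. With all 8 libraries, limma called 2 of the 89 tested chloroplast genes lower in non-aerated shoots and 0 higher, at a Benjamini-Hochberg adjusted p under 0.05. Over all 20160 genes tested, 22.4% were called, 12.4% higher and 10.0% lower. No chloroplast gene passed the rule of the study for differential expression, which adds a fold change of at least 2, against 7.88% of all genes. At an unadjusted p under 0.05 the count was 7 chloroplast genes, 1 higher and 6 lower, where 36.1% of all genes passed. The quasi-likelihood test of edgeR on the recovered reads called the same 2 genes, against 22.9% of all genes (10.4% lower). DESeq2 called 4, all lower, against 28.1% of all genes (12.6% lower).

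The median log2 fold change of the tested chloroplast genes, non-aerated over aerated, was 0.02, with a range from −1.16 to 0.71. Of the 89 genes, 47 were above 0 and 42 below. The standard error had a median of 0.25 in chloroplast genes and of 0.15 over all genes tested. The median absolute log2 fold change was 0.19 in chloroplast genes, against 0.26 over all genes. Values of the 2 treatments did not overlap in 4 chloroplast genes (4.49%), against 27.3% of all genes, and the non-aerated values were below the aerated ones in each of the 4.

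**Figure D2:**
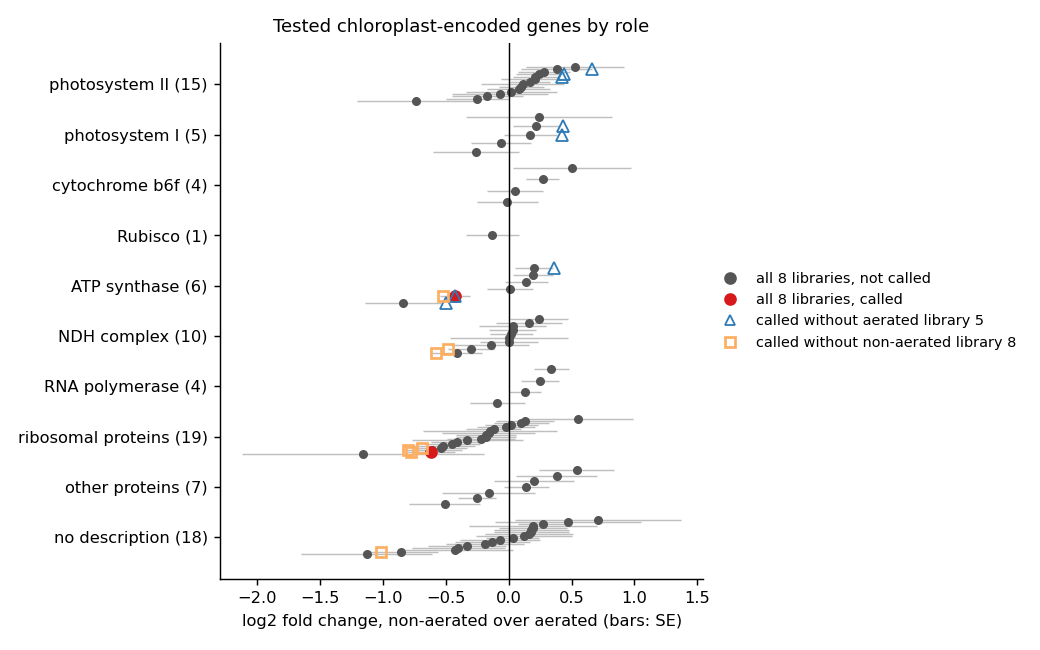
Log2 fold change (non-aerated over aerated) with its SE for the 89 tested chloroplast-encoded genes, grouped by role with the number of genes in parentheses. Filled red points are the 2 genes called with all 8 libraries, and open symbols mark the value of genes called without aerated library 5 (triangles, 8 genes) or without non-aerated library 8 (squares, 7 genes).

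ATP synthase makes ATP from the proton gradient across the thylakoid membrane, and its beta and epsilon subunits are encoded side by side. All 6 chloroplast genes of the complex passed the filter, and *atpB* was called. In the TAIR10.1 chloroplast sequence of RefSeq, the last bases of the *atpB* coding sequence are also the first bases of *atpE*. To which gene reads over this junction were assigned is not stated. The junction is shown because these neighbours had the clearest lower values in non-aerated shoots. Capitals mark the 4 bases that are shared, which hold the start codon of *atpE* and the stop codon of *atpB*.
*atpB*/*atpE* junction, Pltd:52648-52675, minus strand: taaattgaagaaATGAccttaaatcttt

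The gene *atpB* (ATCG00480), for the catalytic beta subunit, had 4467, 5438, 4733 and 6208 normalized counts in non-aerated libraries, against 7235, 6364, 6993 and 7293 in aerated libraries. Every non-aerated value was below every aerated value. The means were 5211 ± 780.4 in non-aerated and 6971 ± 425 in aerated shoots (SD, n = 4 each), a log2 fold change of −0.43 ± 0.12 (SE; adjusted p = 0.0245). Leaving out each library in turn gave −0.52 to −0.36, and the call was kept in 4 of these 8 fits, with adjusted p values from 0.00653 to 0.0753.

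The gene *atpE* (ATCG00470), for the epsilon subunit that regulates the rotor, had 1118, 1365, 1087 and 1588 normalized counts in non-aerated libraries, against 1814, 1727, 4703 and 1855 in aerated libraries. The groups did not overlap, and aerated library 5 was far above the other aerated libraries. Its log2 fold change was −0.84 ± 0.30 (SE; adjusted p = 0.0669) with all libraries and −0.50 without aerated library 5 (adjusted p = 0.0402). The other 4 genes of the complex were not called and had log2 fold changes from 0.01 to 0.20. Among them *atpA*, for the alpha subunit, had 1783, 1844, 1784 and 2072 normalized counts in non-aerated libraries, against 1398, 1513, 2293 and 1444 in aerated libraries, so that only aerated library 5 was above the non-aerated range.

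Ribosomal protein genes were the group with the most negative values. Of 26 such genes 19 passed the filter, 15 had a log2 fold change below 0 and 4 above, and 1, *rpl16*, was called. Their median log2 fold change was −0.18, against 0.02 over all tested chloroplast genes. Leaving out aerated library 5 gave a median of −0.32, and leaving out non-aerated library 8 gave −0.33.

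The lowest of these values was that of *rpl2*, which has 2 copies in the genome, at −1.16, and the next 5 belonged to genes that lie side by side. On the minus strand, *rps19*, *rpl22*, *rps3*, *rpl16* and *rpl14* follow each other with gaps of at most 500 bases. Further along the same strand lie *rpl36*, for a small protein of the large ribosomal subunit, and *rpoA*, for the alpha subunit of the plastid-encoded RNA polymerase. The coding sequences of *rpl22* and *rps3*, for proteins of the large and small ribosomal subunit, overlap. The junction is shown because both genes were among the lower ones, and capitals mark the 16 shared bases.
*rpl22*/*rps3* junction, Pltd:83460-83489, minus strand: gaggcctATGGGACAAAAAATAAatccact

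In the order of the coding strand, the log2 fold changes of the first 5 genes were −0.61, −0.54, −0.52, −0.62 and −0.45, and those of *rpl36* and *rpoA* were −0.12 and −0.09, with standard errors from 0.19 to 0.25. All 7 were below 0, and a difference between the first 5 and these later genes was not tested. Only *rpl16* passed the threshold with all libraries. Without non-aerated library 8, *rps19* (−0.80, adjusted p = 0.0235), *rpl22* (−0.69, adjusted p = 0.0274) and *rpl16* (−0.78, adjusted p = 0.00677) were called.

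**Figure D3:**
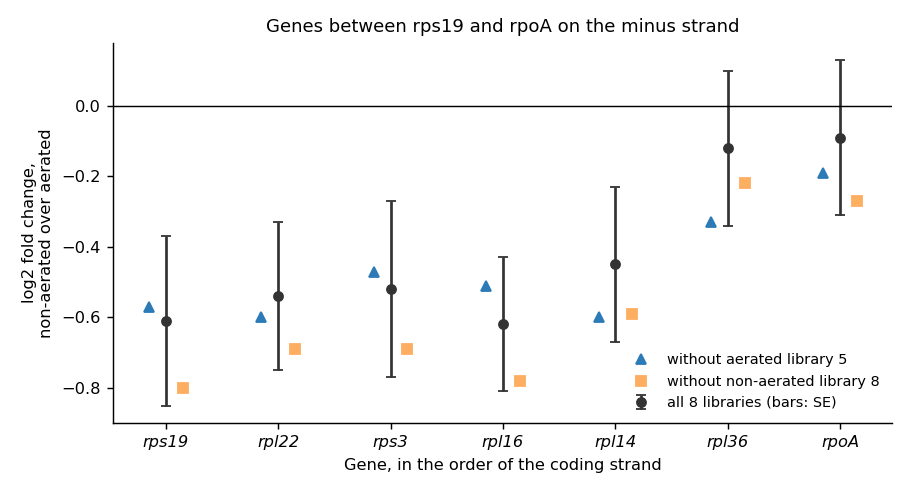
Log2 fold change (non-aerated over aerated) of 7 genes between rps19 and rpoA in the order of the coding strand, with SE for all 8 libraries. All 7 values lie below 0 with all libraries, without aerated library 5 and without non-aerated library 8, and only rpl16 was called with all libraries.

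The gene *rpl16* (ATCG00790) had 1709.7, 2180.4, 1730.4 and 2929 normalized counts in non-aerated libraries, against 3325, 2499, 3967 and 3172 in aerated libraries. Non-aerated library 8 was above aerated library 3, and the other values did not overlap. The means were 2137 ± 571 in non-aerated and 3241 ± 603 in aerated shoots (SD, n = 4 each), a log2 fold change of −0.62 ± 0.19 (SE; adjusted p = 0.0427). The call was kept in 2 of the 8 fits with a library left out, with log2 fold changes from −0.78 to −0.51 and adjusted p values from 0.00677 to 0.109. Its neighbour *rpl22* (ATCG00810) had 356, 564, 338 and 609 normalized counts in non-aerated libraries, against 787, 581, 592 and 693 in aerated libraries. Here too, non-aerated library 8 was inside the aerated range, and the log2 fold change was −0.54 ± 0.21 (SE; adjusted p = 0.0845).

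The *rpl2* gene (ATCG00830), for a core protein of the large ribosomal subunit, had a value that rested on a single library. It had 1041, 1199, 1198 and 45.2 normalized counts in non-aerated libraries, against 530.0, 1025, 2032 and 1562 in aerated libraries. Its log2 fold change was −1.16 ± 0.96 (SE; adjusted p = 0.417), the lowest of all tested chloroplast genes. In non-aerated library 8 only 60 reads were recovered, and without this library the adjusted p was 0.996. The second copy, ATCG01310, was at 1.2 to 7.4 normalized counts in all libraries, so the low value in library 8 was not matched by a high value of the other copy. At the other end, *rps16* had the highest fold change of the ribosomal protein genes, 0.55 ± 0.44 (SE; adjusted p = 0.396), at 7 to 26 reads per library.

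Photosystem II splits water, and photosystem I passes the electrons on to ferredoxin. All 15 chloroplast genes of photosystem II and all 5 of photosystem I passed the filter, and none was called or had an unadjusted p under 0.05 with all libraries. Their median log2 fold changes were 0.11 and 0.17. In 5 of the reaction centre and core antenna genes, *psbA*, *psbC*, *psbD*, *psaA* and *psaB*, 3 aerated libraries were low and aerated library 5 was high. The core antenna gene *psbB* was also highest in aerated library 5 (3977), but aerated library 3 (2797) was above non-aerated libraries 2 and 6 (2792 and 2571), and its log2 fold change was 0.10 ± 0.18 (SE; adjusted p = 0.733) with all libraries and 0.28 (adjusted p = 0.172) without aerated library 5.

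The *psbA* gene (ATCG00020) had 9645, 13741, 8374 and 9305 normalized counts in non-aerated libraries, against 5548, 7917, 14076 and 5855 in aerated libraries. Aerated libraries 1, 3 and 7 were below all non-aerated ones, and aerated library 5 was above them. The log2 fold change was 0.38 ± 0.28 (SE; adjusted p = 0.358) with all libraries and 0.66 (adjusted p = 0.0432) without aerated library 5. The *psbC* gene (ATCG00280), for a core antenna protein of photosystem II, had 4162, 4416, 4398 and 4807 normalized counts in non-aerated libraries, against 3052, 3555, 5738 and 3222 in aerated libraries. It showed the same split of the aerated libraries, with a log2 fold change of 0.24 ± 0.18 (SE; adjusted p = 0.371) and of 0.44 (adjusted p = 0.0113) without aerated library 5. Its neighbour *psbD*, for the D2 reaction centre protein, shares 53 bases of coding sequence with it, and the assignment of reads there is not stated. The log2 fold change of *psbD* without aerated library 5 was 0.42 (adjusted p = 0.0195).

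In photosystem I, *psaA* (ATCG00350), a subunit that binds the reaction centre chlorophylls, had 4352, 4293, 4554 and 5001 normalized counts in non-aerated libraries, against 3010.4, 4051, 5973 and 3154 in aerated libraries. Its partner *psaB* (ATCG00340) had 4751, 4594, 4843 and 5482 in non-aerated libraries, against 3440.4, 4079.6, 7282 and 3513 in aerated libraries. Both were highest in aerated library 5, and their other 3 aerated values were below all non-aerated ones. Without that library their log2 fold changes were 0.43 (adjusted p = 0.0382) and 0.42 (adjusted p = 0.0205), against 0.22 and 0.17 with it. The small subunit gene *psaJ*, with the highest level per kilobase in photosystem I, had a log2 fold change of −0.26 ± 0.34 (SE; adjusted p = 0.615).

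**Figure D4:**
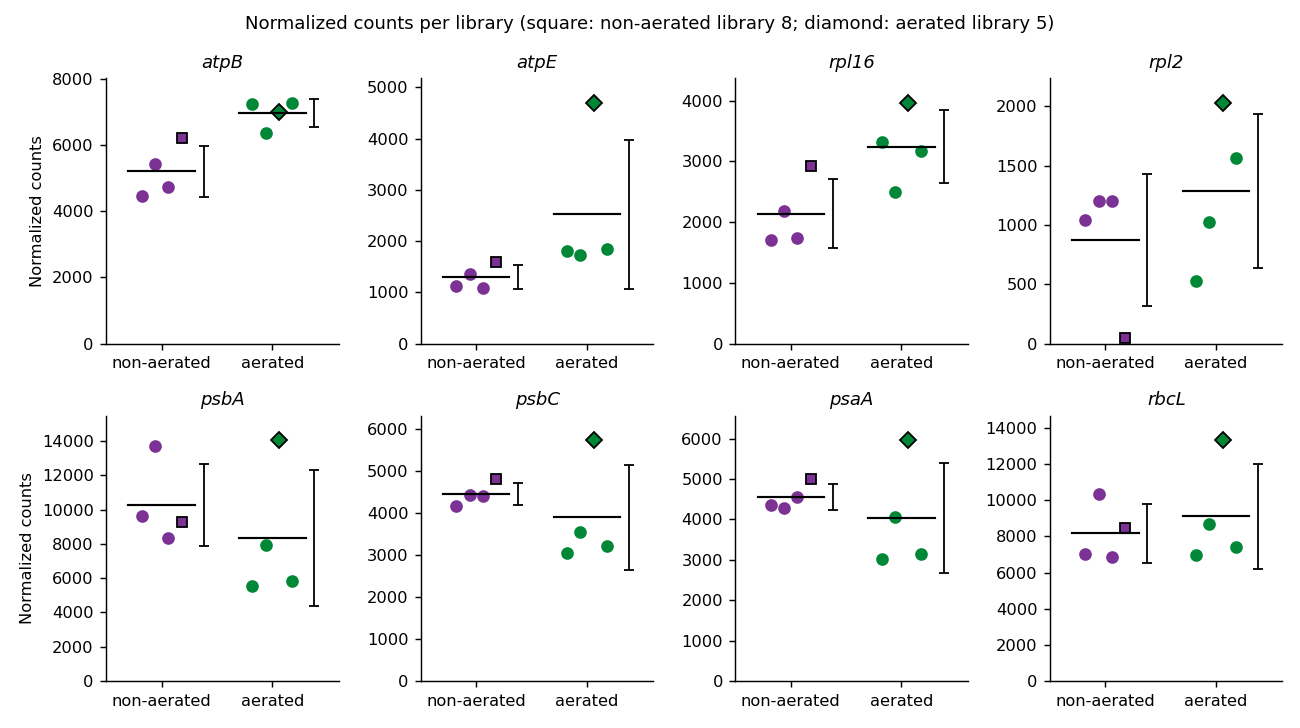
Normalized counts in each non-aerated (purple) and aerated (green) library for 8 chloroplast-encoded genes, with means (lines) and SD (bars, n = 4). The diamond is aerated library 5, highest in all panels but atpB, and the square is non-aerated library 8, which fell to 45.2 for rpl2.

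Leaving out aerated library 5 changed the count of calls more than any other single library. Then 6 chloroplast genes were called higher in non-aerated shoots (*psbA*, *psbC*, *psbD*, *psaA*, *psaB* and *atpA*) and 2 lower (*atpB* and *atpE*), of 90 tested. Over all genes in that fit 18% were called, 10.1% higher and 7.91% lower. The non-aerated values were then all above the aerated ones in 14 of 89 chloroplast genes (15.7%), against 16.7% of all genes. Leaving out non-aerated library 8 gave 0 higher and 7 lower calls (ATCG00390, *ndhJ*, *ndhK*, *atpB*, *rpl16*, *rpl22* and *rps19*) of 91, where 24.9% of all genes were called, 13.5% higher and 11.4% lower. *atpB* was the only gene called with all libraries, without aerated library 5 and without non-aerated library 8. Without aerated library 7, non-aerated library 2 or non-aerated library 6, limma called no chloroplast gene.

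The remaining photosynthetic genes were not called. *rbcL* (ATCG00490) had 7009, 10329, 6847 and 8469 normalized counts in non-aerated libraries, against 6965, 8712, 13345 and 7416 in aerated libraries. The groups overlapped throughout, with a log2 fold change of −0.13 ± 0.21 (SE; adjusted p = 0.698) that turned to 0.07 without aerated library 5. The cytochrome b6f complex carries electrons between the photosystems, and its 4 tested genes had log2 fold changes from −0.01 to 0.50, where *petD* was at −0.01 ± 0.24 (SE; adjusted p = 0.977).

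The NDH complex passes electrons from ferredoxin back to plastoquinone. Of its 12 genes 10 were tested, with a median log2 fold change of 0.01 and a range from −0.41 to 0.24. The lowest values were those of the neighbours *ndhK* and *ndhJ*. *ndhJ* (ATCG00420) had 431, 451, 491 and 744 normalized counts in non-aerated libraries, against 601, 553, 704 and 704 in aerated libraries. Non-aerated library 8 was the highest of all, and without it the log2 fold change was −0.48 (adjusted p = 0.0207), against −0.30 ± 0.18 (SE; adjusted p = 0.246) with it. *ndhK* was at −0.58 (adjusted p = 0.0302) without that library and at −0.41 ± 0.20 (SE; adjusted p = 0.168) with it.

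Genes of the plastid-encoded RNA polymerase ran against the other groups in aerated library 5. The *rpoB* gene (ATCG00190), for the beta subunit, had 1004, 1093, 1025 and 1197 normalized counts in non-aerated libraries, against 1064, 846, 669 and 869 in aerated libraries. Aerated library 5, the highest for most chloroplast genes, was the lowest here. The log2 fold change was 0.34 ± 0.14 (SE; adjusted p = 0.106), and the gene was called only without aerated library 1 (0.45, adjusted p = 0.0399). The following genes *rpoC1* and *rpoC2* had log2 fold changes of 0.25 ± 0.15 and 0.13 ± 0.13 (SE), and *rpoA*, which lies apart from them, was at −0.09 ± 0.22 (SE).

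Among the other proteins, *clpP* (ATCG00670), the proteolytic subunit of the Clp protease, had the highest level per kilobase and a log2 fold change of −0.25 ± 0.15 (SE; adjusted p = 0.24). *accD*, a subunit of the acetyl-CoA carboxylase that starts fatty acid synthesis, had 70.6, 93.8, 74.4 and 98.7 normalized counts in non-aerated libraries, against 53.8, 32, 87.0 and 70.5 in aerated libraries. Its groups overlapped, at 0.54 ± 0.30 (SE; adjusted p = 0.218). Of the 18 tested genes with no description, limma called none, and 1 had an unadjusted p under 0.05.

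In the extremes among the genes with no description, aerated library 5 was the highest library. ATCG00010 had 108, 107, 128 and 158 normalized counts in non-aerated libraries, against 175, 162, 1022 and 187 in aerated libraries. The groups did not overlap, yet the log2 fold change of −1.13 ± 0.52 (SE; adjusted p = 0.144) fell short of the threshold and was −0.50 (adjusted p = 0.08) without aerated library 5. ATCG00390 had 35.3, 37.3, 24.4 and 49.7 in non-aerated libraries, against 50.4, 52.5, 107 and 65.3 in aerated libraries, again without overlap, at −0.86 ± 0.30 (SE; adjusted p = 0.0658). It was called by DESeq2 (adjusted p = 0.0359) and without non-aerated library 8 (adjusted p = 0.0387). ATCG00920 had the highest log2 fold change of all, 0.71 ± 0.66 (SE; adjusted p = 0.475), with 30.7, 153, 94.6 and 95.7 normalized counts in non-aerated libraries, against 20.2, 41.1, 186 and 37.0 in aerated libraries. With a library left out it ranged from 0.29 (without aerated library 1) to 1.34 (without aerated library 5, adjusted p = 0.107).

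The makeup of the chloroplast signal is free of the shift that all chloroplast genes of a library share. ATP synthase genes held 13.8%, 13.1%, 14.3% and 14.8% of the chloroplast normalized counts in non-aerated libraries, against 19%, 16.6%, 15.6% and 18.9% in aerated libraries. These shares did not overlap between the treatments. Ribosomal protein genes held 9.81%, 10.7%, 10.3% and 11.2% in non-aerated libraries, against 15.7%, 12.5%, 11.0% and 16.1% in aerated libraries, where aerated library 5 was inside the non-aerated range. Photosystem II genes held 33.2%, 32.6%, 31.6% and 29.5% in non-aerated libraries, against 23%, 27.1%, 29.6% and 23.6% in aerated libraries, which overlapped only at the lowest non-aerated and highest aerated value. RNA polymerase genes held 3.59% to 4.00% in non-aerated libraries, against 1.83% to 4.62% in aerated libraries, the lowest in library 5. Shares of one whole depend on each other, and no test was made on them.

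**Figure D5:**
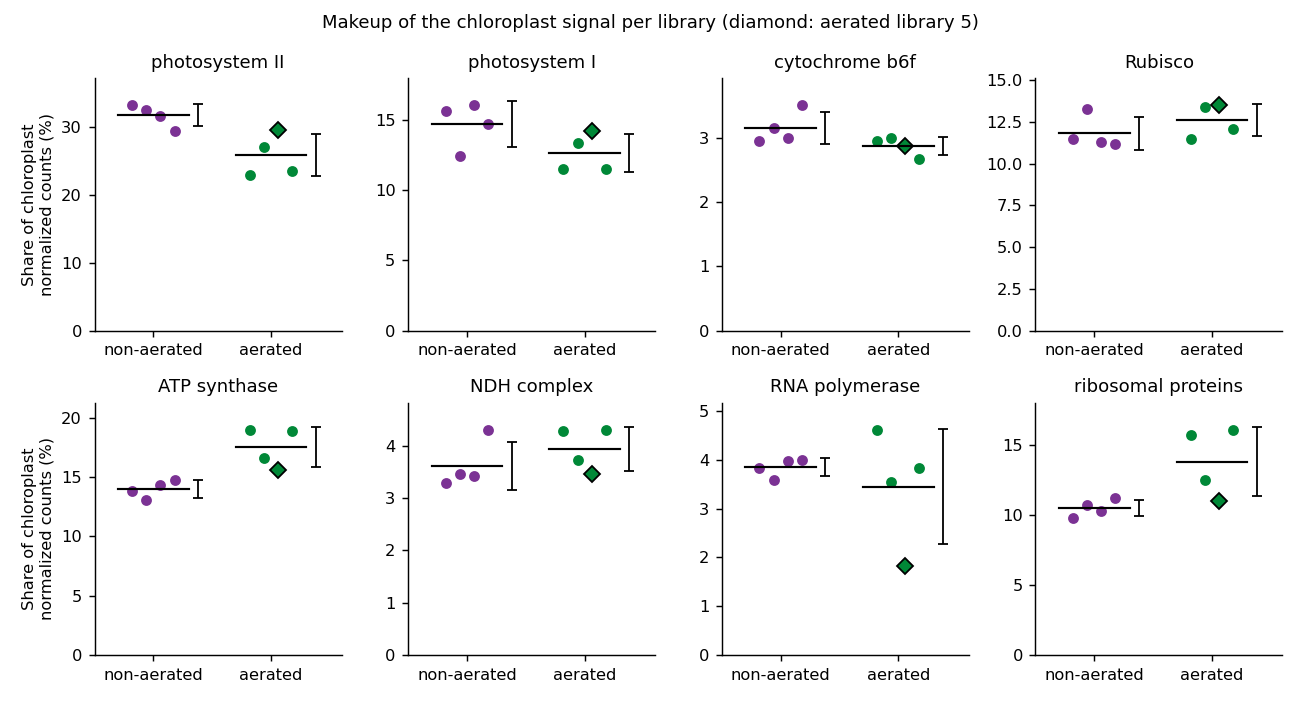
Share of the chloroplast normalized counts (%) held by 8 groups of genes in each non-aerated (purple) and aerated (green) library, with means (lines) and SD (bars, n = 4). ATP synthase shares of 13.1% to 14.8% in non-aerated libraries lie below the 15.6% to 19% of aerated libraries, and the diamond, aerated library 5, is the lowest for RNA polymerase at 1.83%.

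When each chloroplast gene was scaled to the chloroplast total of its library, 3 genes were called lower in non-aerated shoots and none higher, where 22.4% of all genes were called in that fit. They were *atpE* (−0.81, adjusted p = 0.00728), ATCG00390 (−0.83, adjusted p = 0.0249) and *rpl16*. *atpB* kept its direction under this scaling, at −0.39 (adjusted p = 0.106).

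Chloroplast genes varied between libraries of a treatment, with higher SDs than most other genes, which is described here without a test. The median SD of log2 values within a treatment was 0.36 in non-aerated and 0.42 in aerated shoots, against 0.22 and 0.19 over all genes tested. It was above the 90th percentile of all genes, 0.60 in non-aerated and 0.48 in aerated shoots, for 18 and 30 of the 89 chloroplast genes. Without aerated library 5 the median SD of aerated shoots was 0.22 for chloroplast genes, against 0.12 for all genes, so that this library held much of the aerated spread.

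The SDs were also compared within ranges of the mean level, with all libraries included. The part of counting error in them was not tested, and values by level without single libraries are not given. For the 26 chloroplast genes with a mean between 8 and 10 on the log2 scale, the median SD was 0.36 in non-aerated and 0.28 in aerated shoots, against 0.19 and 0.16 for nuclear genes of that level. For the 11 with a mean above 10, it was 0.19 in non-aerated and 0.42 in aerated shoots, against 0.16 and 0.15 for nuclear genes. The 36 with means from 6 to 8 had 0.37 in non-aerated and 0.44 in aerated shoots, against 0.29 and 0.24 for nuclear genes. At means from 3 to 6, chloroplast genes had 0.56 against 0.49 for nuclear genes in non-aerated shoots, and 0.53 against 0.45 in aerated shoots. Mitochondrial genes, the part of the genome most like the chloroplast genes, had median SDs of 0.34 in non-aerated and 0.52 in aerated shoots. Of 33 mitochondrial genes tested limma called 0, with 3 at an unadjusted p under 0.05, and edgeR and DESeq2 called 1 each. Over all genes, limma called 22.4%, with 36.1% at an unadjusted p under 0.05, and edgeR called 22.9% and DESeq2 28.1%.

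Nuclear genes whose products act on chloroplast transcripts were examined beside them. A list of 35 such genes, of sigma factors, phage-type RNA polymerases, polymerase-associated proteins and RNA-processing factors, passed the filter in full. Of these, 2 were called lower in non-aerated shoots and 0 higher, around a median log2 fold change of −0.01. The share of calls was below the 22.4% of all genes.

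The clearer of the called genes was SIG4 (AT5G13730), a sigma factor that in *Arabidopsis* is needed for transcription of *ndhF*. It had 1346, 916, 1723 and 1521 normalized counts in non-aerated libraries, against 2763, 2491, 2985 and 2710.0 in aerated libraries. The groups did not overlap, and the log2 fold change was −1.03 ± 0.17 (SE; adjusted p = 0.00286), called in all 8 fits with a library left out. *ndhF* itself (ATCG01010) had 69.7, 139.5, 78.7 and 112 normalized counts in non-aerated libraries, against 71.4, 93.7, 116 and 71.4 in aerated libraries, with a log2 fold change of 0.16 ± 0.26 (SE; adjusted p = 0.703). The other 5 sigma factor genes were not called, with log2 fold changes from −0.21 to 0.40.

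The RNase J gene (AT5G63420, emb2746), for a nuclease that trims chloroplast transcripts, had 1708, 1673, 1784 and 1524 normalized counts in non-aerated libraries, against 2437, 2327, 1751 and 2441 in aerated libraries. Aerated library 5 was inside the non-aerated range and the others were above it. The log2 fold change was −0.41 ± 0.12 (SE; adjusted p = 0.0354), and the call was kept in 1 of the 8 fits with a library left out, the one without aerated library 5. A further list held 9 nuclear genes for subunits that assemble with chloroplast-encoded ones, in Rubisco, ATP synthase and the cytochrome b6f complex. Of these 9, limma and edgeR called 0 and DESeq2 called 1 higher. Over all genes, limma called 22.4%, edgeR 22.9% and DESeq2 28.1%. At an unadjusted p under 0.05, which 36.1% of all genes passed, limma counted 1 of the 9. This was the Rubisco small subunit gene RBCS1B (AT5G38430), with 30228, 31789, 36989 and 33658 normalized counts in non-aerated libraries, against 29634, 22524, 24885 and 26486 in aerated libraries (log2 fold change 0.36 ± 0.12, SE; adjusted p = 0.0521).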

How the data were processed

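Single-end reads of 100 bases were aligned by the authors to the TAIR10 genome (HISAT2 2.0.4) and assigned to Araport11 genes and transposons (featureCounts 1.5.2), and DESeq2 gave the size factors. In the deposited table, the signal is the read count divided by the size factor of the library, rounded to 1 decimal. The deposited tables also hold the authors' log2 fold changes and adjusted p values, which were not used, and the table of the second set (Micropore-sealed, non-aerated and aerated shoots) holds nothing else. Whole reads were recovered from the steps between low values (99.97% to 100% of the values above 0, tolerance 0.051).

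Log2 of the normalized count plus 1 was fitted with limma 3.58.1 (trend) in R 4.3.3 over 20160 genes with at least 10 in at least 4 libraries (3 where a library was left out). Adjustment was by Benjamini-Hochberg over all genes tested. The p values measure the spread between plates. edgeR 4.0.16 (quasi-likelihood, TMM; 4618 genes called) and DESeq2 1.42.0 (5669 genes called) were run on the recovered reads. Other alternatives were pseudocounts of 0.5 and 10, no filter, TMM factors, library totals, scaling to the chloroplast total, and leaving out each library. The tests were checked on simulated counts drawn independently for each gene. These counts held no shift shared by the chloroplast genes of a library, so the check does not cover that shift. The test planned on counts was replaced because the values were normalized.

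The members and lists were chosen with earlier results of these data known. Named genes had an adjusted p under 0.05, the highest level per kilobase in their role, or were among the 3 highest and 3 lowest fold changes. The nuclear list genes with an adjusted p under 0.05 were named too. *psbB*, *psbC*, *psbD*, *psaA*, *psaB*, *atpA*, *rps19*, *rpl22*, *rps3*, *rpoB*, *ndhK*, *ndhF* and RBCS1B were named after their values were seen, as were the neighbours from *rps19* to *rpoA* and the spread without single libraries. Symbols came from the deposited descriptions and coordinates and coding lengths from RefSeq (TAIR10.1) by symbol. Versions of Python, numpy and pandas were 3.11.15, 2.4.6 and 2.3.3. Some items are not reported here.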

Additional observations from a re-analysis of the deposited data

Results flagged for a closer look

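In a group of 4 libraries, 1 library lay far from the other 3 (by Dixon's criterion, which chance meets in about 1 of 20 groups) for the following values. In aerated library 5 these were the chloroplast share of reads (0.2105%) and the normalized counts of ATCG00010 (1021.8), *atpA* (2292.9), *psbD* (3298.9), *psaB* (7282.1), *atpE* (4703.1), ATCG00920 (185.9) and, on the low side, the RNase J gene (emb2746, 1751). In non-aerated library 8 it was the normalized count of *rpl2* (45.2). Over all tested chloroplast genes, 18 of 178 groups met the criterion, 14 of them at aerated library 5. The cause of these values was not tested.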

How the results depend on the processing

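The count of 2 called chloroplast genes was 2 or 3 with edgeR, other pseudocounts, no filter, TMM factors, library totals or the chloroplast total, 4 with DESeq2, 0 with a fold change of at least 2, and 0 to 8 with a library left out. Of the nuclear expression factors 1 was called with library totals and 1 to 2 with a library left out. Of the partner subunits 1 was called with DESeq2 and 0 to 1 with a library left out, and of the mitochondrial genes 1 with edgeR, 1 with DESeq2 and 0 to 1 with a library left out. All genes gave 2852 to 5065 calls with a library left out. The difference in the chloroplast share of reads, non-aerated minus aerated, was −0.0055 percentage points, and −0.0162 to 0.0110 with a library left out. Among the genes named in the text, the uncalled log2 fold changes that changed sign were those of *ndhF* (0.16, with −0.02 to 0.31 over all fits with a library left out), *rpoA* (0.01, 0.04 and 0.03 without aerated library 1, non-aerated library 2 and non-aerated library 6, with −0.27 to 0.04 over all fits with a library left out), *rbcL* (0.07 without aerated library 5, range −0.25 to 0.07), *petD* (0.02 with the chloroplast total, 0.24 without aerated library 5, and 0.02 and 0.07 without non-aerated libraries 2 and 6, range −0.17 to 0.24) and *psaJ* (0.04 without non-aerated library 6, range −0.49 to 0.04). The causes were not tested. Genes with few reads or with 2 copies in the inverted repeat limit what the depth can show. No paired analysis was possible because the columns carry library numbers and not the replicate numbers of the labels.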
